A study of Mus musculus with 3 samples.

Results

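Cells caught in the act of dividing were picked out of the 2-week library of mouse patellar tendon, the tendon that joins the kneecap to the shin bone. A cell was counted as cycling when it had at least 1 UMI (unique molecular identifier, 1 per captured RNA molecule) of Mki67 and at least 1 of Top2a, and none of the B-cell gene Cd79a. In all, 93 of 4964 kept cells met this rule (1.87%, exact 95% binomial interval 1.51 to 2.29%), among 6588 kept cells of the whole series. They are set against the 4710 cells of the same library with no UMI of either gene. All mice were labelled WT. The cells were freed with collagenase and sorted by flow cytometry to leave neither blood-lineage nor endothelial cells. There was 1 library from animals aged 2 weeks and there were 2 libraries, replicates 1 and 2, from animals aged 20 weeks. The number of animals in a library is not given in the sources used here.

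Mki67 encodes Ki-67, a protein that coats mitotic chromosomes and is made by dividing cells. Top2a encodes the topoisomerase that untangles DNA as chromosomes are copied and separated. A dividing cell first copies its DNA, with genes under E2F factors, and then builds the spindle and separates the chromosomes, with genes under B-Myb and FOXM1. In the growing tendon, cell division is known to be frequent around birth and to become rare as the matrix matures.

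The cells were chosen by their measured Mki67 and Top2a counts, so the contrast with cells lacking both genes is a description and has no test. A single library also gives no replicate check, and cells of 1 library are not replicates. Intervals are exact, at 95%, and cover counting error only. Sequencing depth differed. The cycling cells had a median of 11234 UMIs and 3242 genes per cell, against 6492 UMIs and 2190 genes in cells lacking both. Thinned to 2000 UMIs each, they had a median of 1093 genes, against 991 in cells lacking both. Of the cycling cells, 62 lay in the deepest of 4 equal depth classes of the library and 6 in the shallowest. A doublet score of the scrublet type called 55 of the 93 cycling cells (59.1%), against 127 of the 4710 others (2.70%). The same score computed without cell cycle genes called 30 cycling cells (32.3%) and 159 of the others (3.38%). The part of depth and doublets in the results below was not tested.

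The promoters of the defining genes were searched for short words that cell cycle factors bind. The rule itself placed Mki67 and Top2a together in the 93 cells. Over all kept cells of the library, Top2a was found in 43.7% of those with Mki67 and in 0.863% of those without. The windows run from 250 bases before to 50 after the start of transcription on the gene's own strand, from RefSeq on GRCm38.p6, the assembly that mm10 names. Capitals mark TTTGAA, the word of the cell cycle genes homology region (CHR), CCAAT, and the E2F words TTTCCCGC, TTTGGCGC, TTTCGCGC and TTTGCCGC, each on either strand. The 4 defining genes come first, then Mcm5, a subunit of the helicase that opens DNA for copying.
Mki67, chr7:135716330-135716629, minus strand: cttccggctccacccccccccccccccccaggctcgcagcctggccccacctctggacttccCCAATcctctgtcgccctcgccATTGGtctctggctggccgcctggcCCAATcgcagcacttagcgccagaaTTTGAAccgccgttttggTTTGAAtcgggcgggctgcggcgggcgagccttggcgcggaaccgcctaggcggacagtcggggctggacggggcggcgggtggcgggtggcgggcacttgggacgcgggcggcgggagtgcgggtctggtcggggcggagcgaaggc
Top2a, chr11:99024140-99024439, minus strand: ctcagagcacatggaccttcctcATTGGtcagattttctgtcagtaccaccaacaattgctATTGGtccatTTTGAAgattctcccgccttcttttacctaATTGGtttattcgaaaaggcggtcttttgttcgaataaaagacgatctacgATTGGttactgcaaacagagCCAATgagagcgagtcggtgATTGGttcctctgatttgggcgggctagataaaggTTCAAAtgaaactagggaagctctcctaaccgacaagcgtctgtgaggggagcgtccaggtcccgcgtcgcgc
Cdk1, chr10:69352863-69353162, minus strand: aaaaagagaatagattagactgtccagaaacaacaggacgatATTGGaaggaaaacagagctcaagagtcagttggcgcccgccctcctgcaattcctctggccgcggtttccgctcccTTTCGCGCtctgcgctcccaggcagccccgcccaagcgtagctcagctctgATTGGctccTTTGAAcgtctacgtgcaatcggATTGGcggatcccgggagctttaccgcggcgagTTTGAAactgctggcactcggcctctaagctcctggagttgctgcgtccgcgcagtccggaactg
Birc5, chr11:117848987-117849286, plus strand: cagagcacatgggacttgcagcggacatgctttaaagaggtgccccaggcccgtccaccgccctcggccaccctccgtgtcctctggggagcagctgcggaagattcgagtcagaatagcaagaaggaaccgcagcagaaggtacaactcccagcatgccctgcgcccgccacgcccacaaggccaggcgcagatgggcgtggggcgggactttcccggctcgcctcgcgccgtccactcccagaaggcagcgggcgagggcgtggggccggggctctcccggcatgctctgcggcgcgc
Mcm5, chr8:75109259-75109558, plus strand: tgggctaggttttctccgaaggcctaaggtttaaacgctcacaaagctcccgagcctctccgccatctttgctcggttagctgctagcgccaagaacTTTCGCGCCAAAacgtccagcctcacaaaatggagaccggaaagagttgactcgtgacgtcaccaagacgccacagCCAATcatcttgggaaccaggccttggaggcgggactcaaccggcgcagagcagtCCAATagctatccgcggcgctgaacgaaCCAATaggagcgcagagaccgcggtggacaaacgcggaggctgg

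The Mki67 window held 2 CHR words and 3 CCAAT words, and the Top2a window 2 CHR and 6 CCAAT words. The Cdk1 window held 2 CHR words, 3 CCAAT words and 1 E2F word. In the Birc5 window none of these words was found, which says only that these letters are not in it. The Mcm5 window held 2 overlapping E2F words and 3 CCAAT words, and no CHR word. The window of Ccnb1, a mitotic cyclin gene that was searched as well and is not shown, held 2 CCAAT words and no CHR or E2F word. Across the lists used below, a CHR word was found in the windows of 46 of 80 matched mitosis genes (57.5%, 45.9 to 68.5%) and of 5 of 47 matched replication genes (10.6%, 3.55 to 23.1%), beside 20.2% of the 27025 genes of the table. An E2F word was found for 4 of the 80 mitosis genes (5.00%) and 21 of the 47 replication genes (44.7%), beside 2.61% of all genes. CHR and CCAAT words stood together in 47.5% of the mitosis genes and 8.51% of the replication genes, beside 7.97% of all genes. These words are matches of letters and not shown sites of binding.

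The label of cycling cells was checked with Cdk1, the kinase that drives entry into mitosis, and Birc5 (survivin), a subunit of the chromosomal passenger complex, which the rule did not read. Cdk1 was found in 78 of the 93 cells (83.9%, 74.8 to 90.7%), against 3.59% (3.08 to 4.16%) of cells lacking both genes. Birc5 was found in 82 cells (88.2%, 79.8 to 93.9%), against 0.892% (0.643 to 1.20%) of cells lacking both. Both genes were found in 74 of the cycling cells and neither in 7. Among cells lacking both rule genes, 2 of 4710 held both Cdk1 and Birc5. The summed level of Cdk1 was 616 CPM (UMIs per 1000000 summed UMIs, 570 to 665) in cycling cells and 5.54 CPM in cells lacking both, and that of Birc5 was 612 CPM (566 to 661) and 1.39 CPM.

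The count of Mki67 in a cycling cell had a median of 4 and a maximum of 23 UMIs, and that of Top2a a median of 7 and a maximum of 39. At the edge of the rule, 9 cells had exactly 1 UMI of each gene, of which 6 held Cdk1 and 5 held Birc5. Just outside it were 120 cells with Mki67 alone and 41 with Top2a alone. Birc5 was found in 28.3% of the Mki67-only cells and 19.5% of the Top2a-only cells, and Cdk1 in 18 of 120 and 7 of 41. Their median depths were 6830 and 7819 UMIs. The cells just outside the rule had Cdk1 and Birc5 at shares below those of the 93, at lower depth.

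Genes were compared by the CPM of UMIs summed over each group, as the log2 ratio of cycling cells over cells lacking both with 10 CPM added, for the 3415 genes with at least 50 CPM in either group. By this measure 382 genes (11.2%) were at least 2-fold higher in the cycling cells and 97 (2.84%) at least 2-fold lower, with a median log2 ratio of 0.11 over all 3415. The lower count was 169 without the deepest cells, 179 after thinning and 173 against cells of nearest depth. With 50 CPM added the counts were 236 higher and 47 lower, and with no minimum level 639 and 163. The 12 lists of cell cycle genes held 216 genes, of which 149 passed 50 CPM; 146 of these were at least 2-fold higher and none was 2-fold lower. The other 236 higher genes were in none of the 12 lists. Since most listed genes are low elsewhere and pass 50 CPM through the cycling cells, these counts describe the cells and support nothing further. The same holds for the counts of each list below, where measured genes are those past 50 CPM. Beside each of them stand the 11.2% higher and 2.84% lower of all 3415 genes.

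All 38 listed genes of licensing and the replication fork were higher in cycling cells by some margin. The 21 of them past 50 CPM were all at least 2-fold higher, with a median log2 ratio of 2.16. Pcna, the sliding clamp of the DNA polymerases, was at 307 CPM in cycling cells and 44.9 CPM in cells lacking both. Rfc4, of the clamp loader, was at 130 and 12.5 CPM. All 6 measured genes of nucleotide supply, of 8 listed, were at least 2-fold higher. Among them were Tyms, which makes thymidylate, at 308 and 15.9 CPM and Rrm2, of ribonucleotide reductase, at 205 and 4.34 CPM. These enzymes provide the building blocks of new DNA.

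All 17 genes of histones and their supply were at least 2-fold higher, with a summed 10170 CPM in cycling cells and 770 CPM in cells lacking both. Hist1h2ae, a replication-dependent H2A gene, was at 1233 CPM in cycling cells (52 of 93 with a UMI) and 3.14 CPM in cells lacking both (2.06%). Hist1h2ap was at 1051 and 2.52 CPM, with UMIs in 56 cycling cells. H2afz, which encodes the variant H2A.Z, was found in all 93 and was at 4200 CPM against 361 CPM. Members of the Hist1h2a cluster are near-identical, so reads may be divided among them, and these 2 levels are uncertain.

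All 15 mitotic cyclins and kinases past 50 CPM were higher, with a median log2 ratio of 3.09. Ccna2 (cyclin A2) was at 290 CPM in cycling cells and 0.339 CPM in cells lacking both, from 312 and 11 UMIs. Cks2, a small partner of the cyclin-dependent kinases, was at 959 and 14.5 CPM. All 4 genes of the chromosomal passenger complex, which corrects wrong spindle attachments, were higher, with Cdca8 at 326 and 1.11 CPM and the kinase Aurkb at 156 and 0.462 CPM. So were all 18 measured centromere and kinetochore genes, among them Cenpf at 634 and 1.63 CPM and Cenpa, the centromeric histone H3, at 487 and 4.28 CPM.

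Genes of the exit from mitosis followed, with 1 exception. Of 12 measured genes of the spindle checkpoint and the anaphase-promoting complex, 11 were at least 2-fold higher. Ube2c, the ubiquitin-conjugating enzyme of that complex, was at 1029 CPM in cycling cells and 1.17 CPM in cells lacking both, and Cdc20, its activator, was at 250 and 1.51 CPM. The exception was Pttg1 (securin), which holds sister chromatids together until anaphase, at 41.8 CPM in 28 of the cycling cells and 63.2 CPM in the others (log2 ratio -0.50). All 29 measured spindle, kinesin and cytokinesis genes and all 17 measured ones of condensin, cohesin and chromosome structure were higher. Stmn1 (stathmin), which takes microtubules apart, was at 2155 and 31.9 CPM, and Hmgb2, a chromatin protein, at 1571 and 93.5 CPM.

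The G1 genes, which act before DNA copying, were mixed. Ccne2 (cyclin E2) was at 124 CPM in cycling cells and 2.37 CPM in cells lacking both, and Cdk4 at 284 and 132 CPM (log2 ratio 1.05). The D cyclins did not share this: Ccnd3 was at 104 and 89.9 CPM, Ccnd1 at 44.6 and 36.8 CPM, and Ccnd2 at 97.6 and 186 CPM (log2 ratio -0.87). Among transcription factors of the cycle, Foxm1 was at 47.4 and 1.45 CPM, below the 50 CPM needed to be counted, with a UMI in 40 of the 93 cells.

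The listed inhibitors of the cycle that passed 50 CPM split by family. Cdkn2c (p18), which blocks Cdk4 and Cdk6, was at 279 CPM (248 to 312) in cycling cells and 13.7 CPM in cells lacking both, and was found in 70 of the 93 cells against 8.49% of the others. Cdkn2d (p19), of the same INK4 family, was at 321 CPM and 36.9 CPM, in 69 cells against 20.2%. Of the CIP and KIP family, Cdkn1a (p21) was at 194 and 166 CPM, Cdkn1b (p27) at 82.7 and 78.9 CPM, and Cdkn1c (p57) at 309 and 466 CPM. Rbl1 (p107), a pocket protein, was at 55.7 and 4.19 CPM. Of the list's 6 measured genes, 3 were at least 2-fold higher and none 2-fold lower.

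Outside the cell cycle lists and besides the 2 rule genes, the 13 genes of largest ratio were Pclaf, Pbk, Cdca3, Lockd, Mxd3, Depdc1a, Pimreg, Gmnn, Cdkn2c, Shcbp1, Arhgap11a, Slfn9 and Kpna2. Pclaf, which binds the clamp Pcna, was at 555 CPM in cycling cells and 1.94 CPM in cells lacking both. Gmnn (geminin), which stops DNA from being copied again in the same cycle, was at 146 and 2.71 CPM. Lockd, a long noncoding RNA transcribed next to Cdkn1b, was at 260 and 3.39 CPM. Slfn9, a Schlafen gene, was at 105 and 2.03 CPM, and its relative Slfn5 was lower, at 8.36 and 60.9 CPM.

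**Figure D1:**
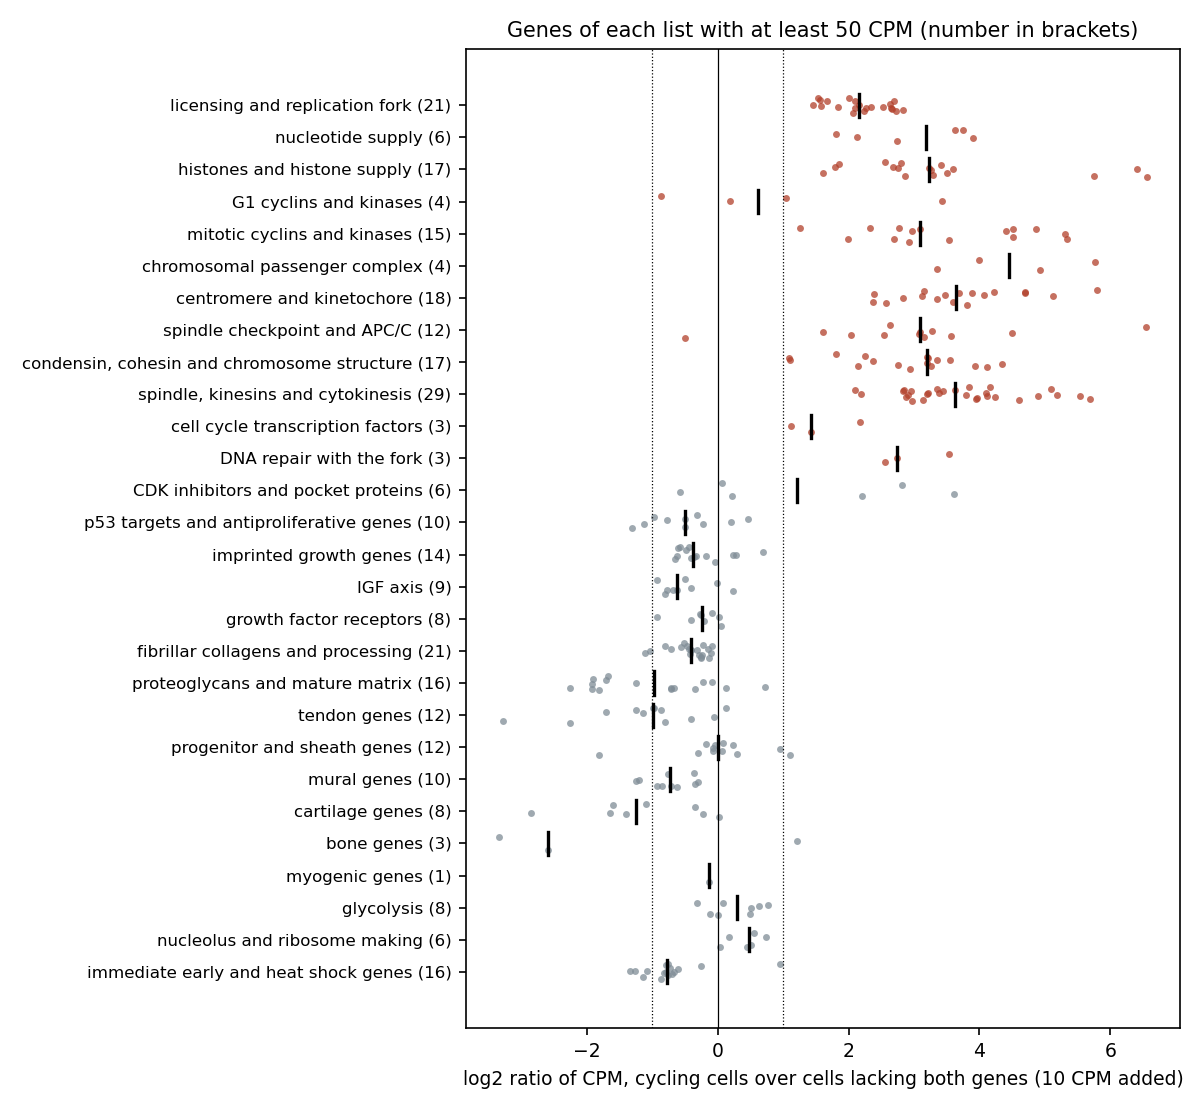
Each point is 1 gene with at least 50 CPM, placed by its log2 ratio of CPM in cycling cells over cells lacking both genes (10 CPM added); black bars are list medians and dotted lines mark 2-fold. The 12 cell cycle lists (red) lie to the right of the 2-fold line except for Pttg1 and the D cyclins, while the matrix, tendon, cartilage and immediate early lists (grey) have medians below 0.

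Within the 93 cells, replication and mitosis transcripts varied widely. UMIs of the 60 replication genes made up a median of 40.5 per 10000 UMIs of a cycling cell, from 1.31 to 104, against a median of 4.77 in cells lacking both. UMIs of the 93 mitosis genes made up a median of 225 per 10000, from 34.6 to 687, against 13.1. Spearman's rho between these was -0.315 over the 93 cells, which share a library and a total that both are divided by. Of the UMIs of both kinds pooled, 84.7% were of the mitosis lists in cycling cells and 83.9% (82.9 to 84.9%) in Mki67-only cells. The share was 71.8% in cells lacking both and 65.5% in Top2a-only cells. In single cycling cells this fraction ran from 31.5 to 98.8%, with quartiles of 69.5 and 94.3%. Of the cycling cells, 87 had more mitosis than replication UMIs. The mitosis lists hold more genes, so no phase was assigned from this.

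**Figure D2:**
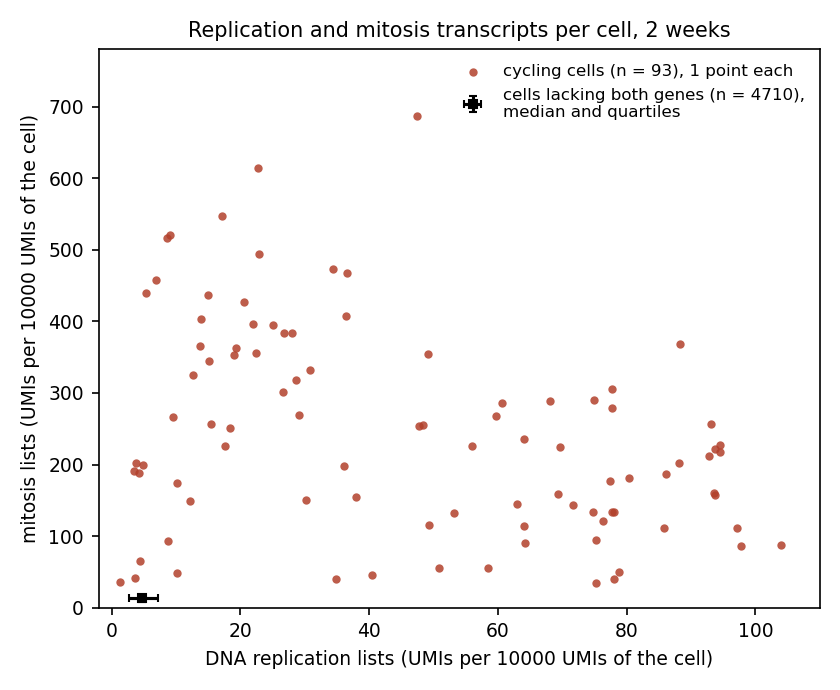
Each red point is 1 of the 93 cycling cells, with UMIs of the DNA replication lists (x) and of the mitosis lists (y) per 10000 UMIs of the cell; the black square gives the median and quartiles of the 4710 cells lacking both genes (4.77 and 13.1). Cells with the most mitosis transcripts, up to 687, lie at low or middle replication values, and the cell with the most replication transcripts, 104, lies at 87.9 on the y axis.

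At least 1 of the 7 lineage markers was found in 84 of the 93 cycling cells (90.3%, 82.4 to 95.5%), against 88.9% (88.0 to 89.8%) of cells lacking both. The markers are Tnmd (tenomodulin, of tenocytes), Cd55 (of tendon sheath and progenitor fibroblasts), Myh11 (smooth muscle myosin, of mural cells around vessels), Col9a1 (cartilage collagen), Ibsp (bone sialoprotein), Pax7 (of muscle stem cells) and Igfbp3 (an IGF-binding protein, of growth-phase fibroblasts). With at least 3 UMIs of a marker required, 62 cycling cells (66.7%) carried 1 or more, against 72.6% of the others. All markers except Ibsp were found among the cycling cells.

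Tnmd was found in 36 cycling cells (38.7%, 28.8 to 49.4%), against 46.2% of cells lacking both. This share is no higher than the 49.1% found in cells with at least 3 UMIs of Myh11, at a median depth of 7616 UMIs, so the share at 1 UMI is not read as expression. At 3 or more UMIs, Tnmd was carried by 25 cycling cells (26.9%), against 32.1% of cells lacking both and 13.4% of the Myh11 cells. Its level was 971 CPM in cycling cells and 1914 CPM in cells lacking both (log2 ratio -0.97), and in the 93 cells lacking both of nearest depth it was found in 62.4%.

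Cd55 was found in 43 cycling cells (46.2%, 35.8 to 56.9%), against 26.6% (25.4 to 27.9%) of cells lacking both and 2.53% of Myh11 cells. Thinned to 2000 UMIs, the shares were 26.1% (17.5 to 36.3%) and 16.8% (15.7 to 17.9%). In 93 cells lacking both that were chosen for the nearest depth, it was 26.9% (18.2 to 37.1%). The level was 204 CPM in cycling cells and 195 CPM in cells lacking both (ratio 1.05, 0.911 to 1.20). The share was higher and the level was not, so no order is read from the share. Leaving out called doublets, 17 of 38 cycling cells (44.7%) carried Cd55, against 26.6% of the others.

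Igfbp3 was found in 33 cycling cells (35.5%), against 35.8% of cells lacking both and 5.99% of Myh11 cells, at levels of 168 and 328 CPM. Myh11 was found in 19 cycling cells (20.4%, 12.8 to 30.1%), against 18.6% of cells lacking both and 5.08% of cells with 3 or more Col9a1 UMIs, at levels of 270 and 495 CPM. Both shares differ from those of cells lacking both by less than their counting error. Both levels were lower in the cycling cells.

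Col9a1 was found in 4 cycling cells (4.30%, 1.18 to 10.6%), against 8.87% of cells lacking both, at 23.2 and 60.9 CPM. Ibsp was found in 0 of 93, which allows a share of up to 3.89%, against 2.10% of cells lacking both. A difference in this share was therefore not detectable at this number of cells. Its level in cells lacking both was 50.3 CPM, and no fold is drawn from it, since few cells held these UMIs. Pax7 was found in 4 cycling cells (4.30%, 1.18 to 10.6%), against 1.19% (0.899 to 1.54%) of cells lacking both, and in none of the 92 cycling cells after thinning.

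**Figure D3:**
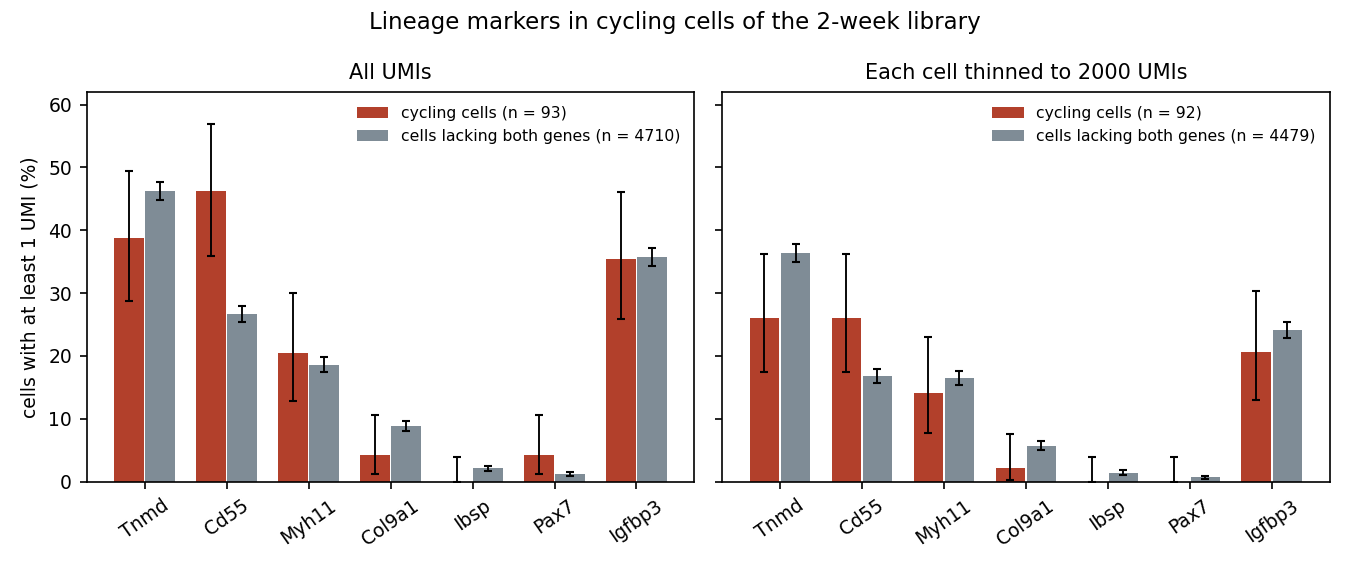
Bars give the percentage of cycling cells (red) and of cells lacking both genes (grey) with at least 1 UMI of each lineage marker, over all UMIs (left) and after thinning each cell to 2000 UMIs (right); error bars are exact 95% binomial intervals, for counting error only. Cd55 shows the widest gap (46.2 against 26.6% over all UMIs), and the 2 intervals overlap after thinning.

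Counted the other way, the share of cycling cells among carriers of a marker was 3.18% (2.31 to 4.26%) for Cd55, 2.04% (1.23 to 3.16%) for Myh11, 1.87% (1.29 to 2.62%) for Igfbp3, 1.59% (1.11 to 2.19%) for Tnmd and 0.939% (0.256 to 2.39%) for Col9a1. Of 63 Pax7 carriers 4 were cycling (6.35%, 1.76 to 15.5%), and of 99 Ibsp carriers none was. Cells without Cd55 had 1.38% (1.03 to 1.82%) cycling cells, at a median of 6134 UMIs against 7643 in the carriers. With the rule read after thinning to 2000 UMIs, the shares were 1.23% (0.590 to 2.24%) in Cd55 carriers and 0.792% (0.539 to 1.12%) in the rest. Neighbours in the order from Pax7 down to Col9a1 have overlapping intervals.

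The label of stromal cells did not hold for 12 of the 93, which carried a gene of the muscle lineage. Myod1, the factor that commits cells to muscle, was found in 12 of the 93 cycling cells (12.9%, 6.85 to 21.5%), against 1.42% (1.10 to 1.80%) of cells lacking both. After thinning the shares were 6.52 and 0.714%, and without called doublets they were 15.8 and 1.03%. Its level was 47.4 CPM (35.3 to 62.3) in cycling cells and 5.79 CPM in cells lacking both, under the 50 CPM needed to be counted. Of 85 Myod1 carriers in the library, 12 were cycling (14.1%, 7.51 to 23.4%).

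Of these 12 cells, 4 held Pax7, 3 held Myf5, which marks muscle progenitors, 8 held the muscle cadherin gene Cdh15 and 10 held desmin (Des). Just 1 held Tnmd. Myog (myogenin), the factor of muscle differentiation, was found in 3 of the 12 at 43.1 CPM, against 29 of the 67 Myod1 carriers lacking both genes at 2390 CPM. Over the whole groups Myog was at 4.65 and 40.7 CPM. The 4 cells led by Pax7 all held Myod1, Cdk1 and Birc5.

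**Figure D4:**
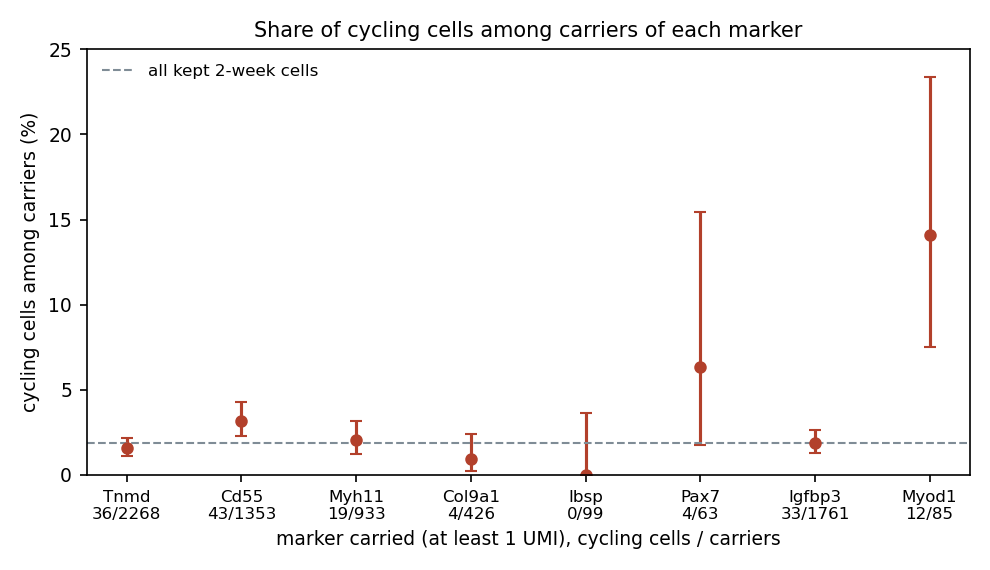
Points give the percentage of cycling cells among kept 2-week cells carrying at least 1 UMI of each marker, with exact 95% binomial intervals; the numbers under each name are cycling cells and carriers, and the dashed line is the 1.87% of all kept cells. Myod1 carriers are highest at 14.1% and the interval lies above the line, as does that of Cd55 carriers at 3.18%.

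Each cell was then placed by the lineage marker with most UMIs, where 1 UMI was enough and ties counted as no marker leading. Some cells were thus placed by a single UMI, a count that was not read as expression for Tnmd above. The Igfbp3-led cycling cells included 3 with Myod1. The Tnmd-led ones included 1 with Myod1, which held 1 UMI of Tnmd and 13 of Myod1. Among the 93 cycling cells Cd55 led in 22, Tnmd in 21, Igfbp3 in 17, Myh11 in 14, Pax7 in 4 and Col9a1 in 2, and in 13 no marker led. Cycling cells made up 8.51% (2.37 to 20.4%) of Pax7-led cells, 2.71% (1.71 to 4.08%) of Cd55-led, 1.86% of Igfbp3-led, 1.72% of Myh11-led, 1.48% (0.916 to 2.25%) of Tnmd-led and 1.06% of Col9a1-led cells. Neighbours in this order have overlapping intervals. Of 149 measured cell cycle genes, 136 were at least 2-fold higher in each of the 5 larger groups (Tnmd, Cd55, Igfbp3, Myh11 and none leading). Medians of their log2 ratio ran from 2.91 to 3.31. Most of the 149 passed 50 CPM through these same cycling cells, and no share over all genes within each group stands beside the count. It therefore describes the groups and supports nothing further. The mitosis share of list UMIs was 87.6% in the Myh11-led cells, 86.6% in the Tnmd-led and 80.7% in the Cd55-led.

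Cells with 3 or more UMIs of at least 2 lineage markers numbered 16 of the 93 (17.2%, 10.2 to 26.4%), against 13.4% (12.4 to 14.4%) of cells lacking both. These 16 had a median of 18410 UMIs, against 9854 in the other cycling cells. The pairs were Tnmd with Myh11 in 5, Cd55 with Igfbp3 in 5, Tnmd with Cd55 in 3, Tnmd with Igfbp3 in 3, and Cd55 with Myh11 and Myh11 with Igfbp3 in 1 each, where the 1 cell with 3 markers counts in 3 pairs. The doublet score called 62.5% of the 16. Some cycling cells thus held markers of more than 1 lineage, as did some cells lacking both.

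Both collagen I genes were lower over all cycling cells and within those led by Tnmd. Col1a1 was at 11824 CPM in cycling cells and 25518 CPM in cells lacking both (log2 ratio -1.11), and Col1a2 at 9160 and 18714 CPM (log2 ratio -1.03). In Tnmd-led cells Col1a1 was at 25007 CPM in the 21 cycling cells and 58586 CPM in the others, a log2 ratio of -1.23. In Cd55-led cells it was at 12272 and 10746 CPM (0.19), in Igfbp3-led cells at 11732 and 13125 CPM (-0.16) in Myh11-led cells at 1206 and 1129 CPM (0.09), and where no marker led at 8035 and 13606 CPM (-0.76). Of 21 measured genes of fibrillar collagens and their processing, the other 19 differed by less than 2-fold, with a list median of -0.41, among them Col3a1 at 8035 and 9541 CPM. The log2 ratio of Col1a1 was -0.79 with the comparison cells weighted to the same leading markers, -0.80 without the deepest cells, -0.85 after thinning, -0.84 as a mean over single cells and -2.13 against cells of nearest depth.

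Of 16 measured genes of proteoglycans and mature matrix 8 were at least 2-fold lower and none higher, with a median of -0.98, and of 12 tendon genes 5 were lower and none higher, with the same median. Fmod (fibromodulin), which steers collagen fibril growth, was at 311 CPM in cycling cells and 1032 CPM in cells lacking both. Comp, a pentameric matrix protein of loaded tendon and cartilage, was at 74.3 and 393 CPM, with UMIs in 20.4 and 34.4% of the cells. Within the Tnmd-led cells, Fmod was at 986 and 2758 CPM and Comp at 173 and 746 CPM. Ecrg4 was at 631 and 2384 CPM, and at 1147 and 5755 CPM within the Tnmd-led cells.

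Chad (chondroadherin) was found in 7.53% of cycling cells and 20.4% of the others, at 46.5 and 351 CPM. Wif1, a secreted inhibitor of WNT ligands, was at 21.4 and 124 CPM, and Itgbl1 at 37.2 and 177 CPM. Angptl7, a secreted protein of tenocytes, was at 3.72 and 124 CPM, from 4 UMIs in cycling cells, and at 7.85 and 360 CPM in the Tnmd-led cells. In the Cd55-led cells, Fmod, Ecrg4 and Tnmd went the other way, at 68.9 and 7.67 CPM, 678 and 101 CPM, and 61.3 and 9.54 CPM. The 16 Tnmd UMIs of these cycling cells all came from a single cell of 32383 UMIs, which also held 19 of Cd55. Fmod had 18 UMIs in them, so neither is read as a trait of the Cd55-led cells. The doublet score called 14 of the 22 Cd55-led, 12 of the 21 Tnmd-led, 10 of the 17 Igfbp3-led and 7 of the 14 Myh11-led cycling cells, and 10 of the 13 with no leading marker.

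Of 8 cartilage genes measured 5 were at least 2-fold lower, with a median of -1.25, among them Col2a1 at 177 and 483 CPM and Snorc at 3.72 and 88.7 CPM. Of 3 bone genes measured, Ibsp and Spp1 (osteopontin) were lower and Col22a1, a collagen of tissue junctions, was higher at 67.8 and 23.6 CPM. The 73 Col22a1 UMIs of the cycling cells lay in 6 of them, all led by Tnmd, so no fold is drawn from this gene. Spp1 was at 9.29 and 186 CPM, and the muscle fibre genes Mylpf, Myl1 and Acta1 were at 6.50 and 160 CPM, 2.79 and 92.8 CPM, and 11.1 and 109 CPM. Their shares of cells were alike, for example 6.45% of cycling cells and 3.95% of the others for Mylpf. Against the 93 cells of nearest depth, the log2 ratios were 0.37 for Mylpf, 0.14 for Spp1, -0.29 for Myl1, -0.18 for Acta1 and -0.25 for Ibsp, so these 5 differences depend on which cells are compared. Without doublets called on other genes than those of the cell cycle, Mylpf was at -0.87 and Acta1 at -0.58.

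Mural genes had a median below 0, and none of the 14 listed was higher in cycling cells. Progenitor genes had a median near 0. Of 10 mural genes 2 were at least 2-fold lower, Tagln at 1744 and 4154 CPM and Rgs5 at 222 and 522 CPM, with a list median of -0.73. Within Myh11-led cells, the contractile genes Tagln, Acta2 and Myh11 were at 8427 and 23222 CPM, 17691 and 27126 CPM, and 1391 and 2825 CPM. Of 12 progenitor and sheath genes 10 were within 2-fold, with a median of 0.01. Krtdap was higher at 207 and 91.1 CPM, and Prg4 (lubricin), which lets tendon surfaces glide, was lower at 115 and 427 CPM. Pi16, Dpp4, Ly6a and Cd34 differed by log2 ratios from -0.07 to 0.30.

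Ncam1, a cell adhesion molecule of nerve and muscle, was at least 2-fold higher in 4 of the 5 larger groups. It was found in 71 of the 93 cycling cells (76.3%, 66.4 to 84.5%), against 21.1% (20.0 to 22.3%) of cells lacking both, at 172 and 43.7 CPM. After thinning the shares were 23.9 and 8.31%, and without called doublets they were 76.3 and 20.9%. The log2 ratio was 1.76 in Tnmd-led, 2.12 in Cd55-led, 2.09 in Igfbp3-led and 2.41 in Myh11-led cells, and 0.75 where no marker led. Of the Schwann cell genes listed with it, S100b was at 10.2 and 28.9 CPM, and Sox10 had 1 UMI in all the cycling cells.

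All 16 immediate early and heat shock genes passed 50 CPM; 15 were lower in the cycling cells, 4 of them at least 2-fold (Atf3, Ier3, Zfp36 and Hspa1b), with a list median of -0.77. Fos was at 1251 and 2123 CPM. The 1 higher gene was Hsp90aa1, a chaperone, at 695 and 356 CPM (log2 ratio 0.95). Of 10 p53 target and antiproliferative genes 2 were at least 2-fold lower, Gadd45b at 286 and 724 CPM and Gadd45g at 341 and 757 CPM. Slfn5 was found in 5.38% of cycling cells and 20.5% of the others, and its log2 ratio was -0.33 in Tnmd-led and -1.65 to -3.26 in the other 4 larger groups.

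Growth factor and metabolic genes lay within 2-fold. None of the 9 measured IGF axis genes, 14 imprinted growth genes or 8 growth factor receptors differed by 2-fold. Igf2, the fetal growth factor, was at 894 CPM in cycling cells and 1184 CPM in cells lacking both, and the imprinted RNA H19 at 717 and 904 CPM. The receptor gene Pdgfra was at 165 and 176 CPM. All 8 glycolysis genes and all 6 nucleolus genes measured were within 2-fold, with medians of 0.29 and 0.48.

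**Figure D5:**
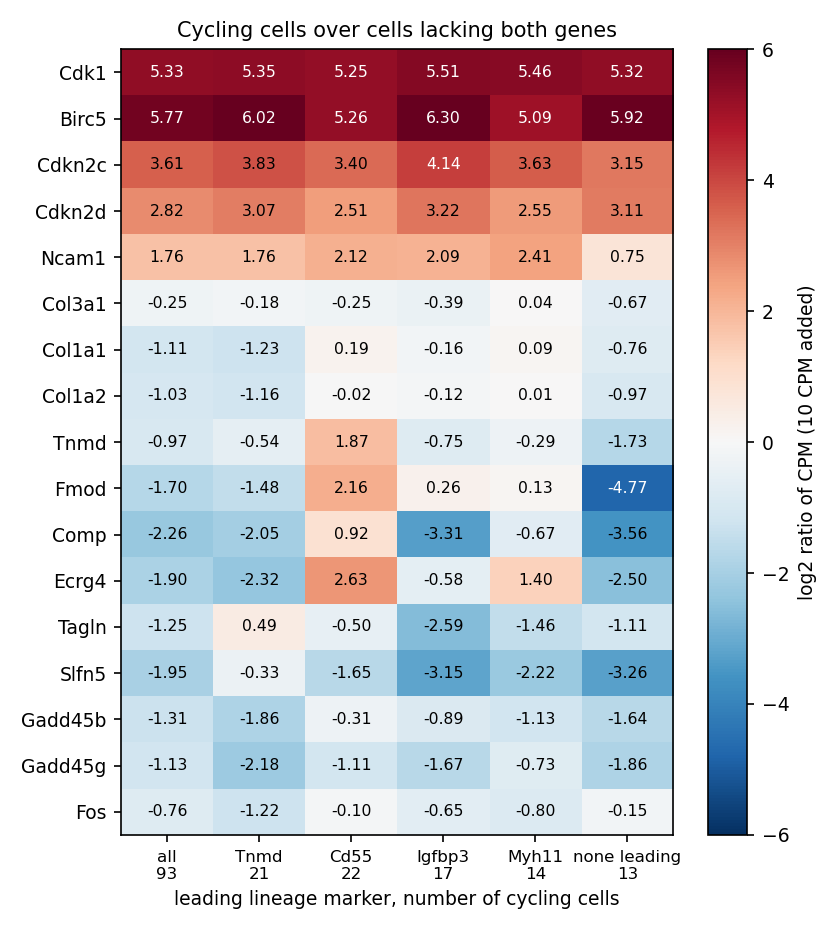
Each box gives the log2 ratio of CPM (10 CPM added) of cycling cells over cells lacking both genes, over all cells (left column) and within cells led by each lineage marker, with the number of cycling cells under each name. Cdk1, Birc5, Cdkn2c and Cdkn2d are higher in every column, whereas Col1a1 and Col1a2 are near 0 in Cd55-, Igfbp3- and Myh11-led cells and -1.23 and -1.16 in Tnmd-led cells.

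Markers of blood and endothelial cells, which the sort was meant to remove, were at or near 0 in the 93. Ptprc, Pecam1 and Emcn had no UMI, nor had the 6 B-lineage markers, of which the rule itself fixed Cd79a at 0. The summed level of 6 blood-lineage markers was 3.72 CPM in cycling cells and 1.39 CPM in cells lacking both, that of 6 endothelial markers 6.50 and 4.12 CPM, and 6 macrophage markers had 3 UMIs in all cycling cells. Haemoglobin and other erythroid markers summed to 7.43 and 156 CPM.

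The same rule found few cells at 20 weeks. It gave 93 of 4964 cells at 2 weeks, against 0 of 609 in 20-week replicate 1, which allows a share of up to 0.604%. In replicate 2 it gave 2 of 1015 (0.197%, 0.0239 to 0.710%). The share at 2 weeks was 19 times the mean of the 20-week shares, and 9.51 times that of replicate 2 alone. Over the pooled 20-week cells the ratio was 15.2 (counting interval 4.09 to 127). The 20-week libraries were shallower, with medians of 2848 and 5132 UMIs against 6570. At 2000 UMIs a cell the shares were 0.867% at 2 weeks and 0 of 467 and 2 of 893 cells (0.224%) at 20 weeks. With 1 library against 2, no test was made.

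Of the 2 cells at 20 weeks, the first was the deepest of its library, with 117175 UMIs, and held 10 UMIs of Cd55. The other had 2449 UMIs, no lineage marker and neither Cdk1 nor Birc5. Both had 0 UMIs of Col1a1, which was at 11824 CPM in the 2-week cycling cells. The Cd55 UMIs are therefore not read as a sign of lineage. Replicate 2 held 19 further cells with both rule genes and Cd79a. All 19 had Cd79b and 13 had Ptprc, and the rule left them out. At 2 weeks no cell had both rule genes and Cd79a. The libraries shared 2, 3 and 0 barcodes between pairs, so they were treated as separate cells.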

How the data were processed

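Droplet single-cell libraries (10x, 3' v3.1 chemistry per the labels' protocols) were deposited as matrices of UMI counts. The submitters' processing notes name Cell Ranger 6.1.2 and mm10. Count settings and the gene annotation are not given in the sources used here. The deposited counts are not normalized, and barcodes are taken as cells. The 2-week library held 35556626 UMIs in 5654 barcodes and the 20-week libraries 1886785 and 5849867 UMIs in 715 and 1169.

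Barcodes with at least 500 genes, 1000 UMIs and at most 10% mitochondrial UMIs were kept (4964, 609 and 1015). The rule was then read on the counts. UMIs were summed per group and scaled to CPM. Log2 ratios had 10 CPM added, genes needed 50 CPM in either group, and 2-fold was the size counted; the gene level shown is not corrected for length, and levels are compared between groups and not between genes. Depth was equalised by drawing 2000 UMIs per cell without replacement, which left out 1 cycling cell and 231 cells lacking both. Doublets were not removed; a scrublet-type score with exact neighbours called 197 barcodes at 0.8% per 1000, which was used as an alternative, again without cell cycle genes. Shares have exact Clopper-Pearson intervals and ratios of counts exact binomial ones, and all cover counting error only.

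No test was made, since 1 library holds the cycling cells and the rule read their counts. Genes named are the lineage and defining markers, the 4 highest of each cell cycle list and 3 highest of each other list, and the 15 of largest and smallest ratio outside the cell cycle lists, leaving out mitochondrial, ribosomal protein, haemoglobin and clone-named genes. Mcm5, Ccnb1, Ncam1, S100b, Sox10, Myog, Myf5, Cdh15, Pttg1, Hsp90aa1, Krtdap and Prg4 were added after their values were seen. So were Dpp4, Cd34, Ccnd1, Cdkn1a, Cdkn1b, Rbl1, Rgs5 and the called immediate early genes. The cells, the gene lists and the markers were chosen with earlier results of these data known. The calculation of the ratio was checked on simulated counts. These had no variation between cells, so the check says nothing of ratios that rest on few cells. Promoters are from RefSeq; 80 of 93 mitosis and 47 of 60 replication genes matched by symbol. Python 3.11.15, numpy 2.4.6, scipy 1.17.1, pandas 2.3.3 and scikit-learn 1.9.0 were used. Some listed genes are not reported here.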

Additional observations from a re-analysis of the deposited data

Results flagged for a closer look

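The count tables hold features for added transgenes, which no comparison used although the mice were labelled WT. In the 2-week library EGFP had 1981 UMIs and tdTomato 1057 UMIs, and within the 93 cycling cells they had 32 and 34 UMIs, in 12 and 18 cells. Each is above 3 UMIs, the cut-off set for listing a feature here, and no library served as a control for these features. Beside this, 20-week replicates 1 and 2 had 86 and 58 UMIs of EGFP and 890 and 1407 of tdTomato.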

How the results depend on the processing

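The share of cycling cells at 2 weeks, 1.87% as reported, was 1.37% with 2 UMIs of both genes required, 1.38% without the deepest barcodes, 0.797% without called doublets, 1.32% without doublets called on other genes than those of the cell cycle (a setting chosen after seeing the data) and 0.867% with the rule read after thinning. The share with a lineage marker was 68.5% after thinning. The mitosis share of list UMIs was 85.5, 82.8, 86.3, 81.8 and 84.2% for 2 UMIs of both genes, without the deepest barcodes, without called doublets, without doublets called on other genes, and thinned. Genes at least 2-fold higher numbered 236 with 50 CPM added, 579 with a 20 CPM minimum and 639 with none. Genes at least 2-fold lower numbered 47, 153 and 163 in the same settings, 169 without the deepest barcodes, 179 after thinning and 173 against cells of nearest depth. Mylpf and Spp1 reversed against cells of nearest depth (0.37 and 0.14). Where a minimum or a number added changed, the construction moves the count; elsewhere the cause was not tested. Of 35 named genes at least 2-fold apart, 33 kept their direction in all 13 alternatives and 24 stayed 2-fold apart in each. The ratio of ages was 9.51 without 20-week replicate 1 and cannot be formed without replicate 2; it ran from 7.74 after thinning to 34.4 with the stricter cell filter. Depth limits the rarer markers, and a marker found in 0 of 93 cells may still have a share of up to 3.89%. No paired analysis was possible because no result comes from a test and the 2-week group is 1 library.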
